A study of Mus musculus with 8 samples.

Results

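The F-box, Asb, Klhl and Kbtbd genes code for the interchangeable adaptors with which cullin-RING ubiquitin ligases pick the proteins they mark. They were chosen by gene symbol, with earlier results of these data known. Every probe set (the short probes that together measure 1 gene) counted as a member if its symbol was Fbxl, Fbxo, Fbxw, Asb, Klhl or Kbtbd followed by a number, leaving out Fbxo32, Fbxo30, Fbxo21, Fbxo31, Asb2 and Fbxl8. This gave 138 genes, with 1 probe set each, of the 22206 probe sets on the array. There were 18 Fbxl, 33 Fbxo, 24 Fbxw, 17 Asb, 37 Klhl and 9 Kbtbd genes. One of them, Fbxl12os, matched by its symbol but is a transcribed pseudogene on the opposite strand and not an F-box gene.

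In a cullin-RING ligase, a cullin scaffold holds a RING subunit at one end, which brings the ubiquitin-charged enzyme, and an adaptor at the other end, which binds the substrate. F-box proteins reach CUL1 through SKP1, Asb proteins reach CUL5 through elongins B and C by their SOCS box, and Klhl and Kbtbd proteins bind CUL3 directly by their BTB domain. Attachment of NEDD8 to the cullin switches the ligase on, and the COP9 signalosome takes NEDD8 off again. Striated muscle expresses a set of such adaptors of its own, several of which act on sarcomere proteins, and mutations in KLHL40, KLHL41 and KBTBD13 cause nemaline myopathy.

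RNA was taken from gastrocnemius (GAS) in C57/Bl6j mice, all males and 14 weeks old per the labels. This was 3 weeks after an adeno-associated virus (AAV, serotype 1) was injected into the muscle. The mice were about 10 weeks old at injection. That age and the 3 weeks together fall short of the labelled age, and the difference was not resolved. One leg received a virus coding for a short hairpin RNA against Mytho (AAV sh-RNA MYTHO), and the contralateral leg received a virus with a scrambled hairpin (AAV sh-RNA scrmb). Both groups thus carried a virus and a hairpin, an uninjected muscle was not compared here, and the U6 promoter that drove both hairpins is not restricted to muscle fibres. Each group held 4 Clariom S arrays, and the animals are called A, B, C and D, the order in which array values are given. Values are log2 signals, and a log2 fold change is the mean log2 signal of MYTHO minus that of scrmb. In bulk muscle, fewer cells of a type and less RNA per cell cannot be told apart.

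Mytho itself, listed as D230025D16Rik, had a log2 signal of 10.78 to 11.35 in the scrmb arrays and 8.08 to 8.80 in the MYTHO arrays (log2 fold change -2.81, limma adjusted p = 0.00044). The 6 fast-fibre markers had a mean log2 signal between 19.57 and 19.64 on every array, with 3 of the 6 at the ceiling of the scale, so the tissue is muscle as labelled. The scrmb array of animal D stood apart from the other scrmb arrays on the first principal component, at 3.31 against -25.7 to -45.4, with the MYTHO arrays at 11.7 to 40.4. Of 8 slow-fibre markers, 7 were higher in MYTHO at an unadjusted p under 0.05, and their mean log2 signal was 13.7, 11.91, 11.94 and 11.61 in scrmb against 14.88, 14.43, 14.81 and 11.68 in MYTHO. Their summed level ran from 15.47 to 17.62 on the log2 scale in scrmb and from 15.74 to 18.71 in MYTHO. Of 4 endothelial markers, 2 were higher (list mean 10.27 to 10.86 in scrmb and 11.04 to 11.28 in MYTHO), and of 4 fibroblast markers, 1 was lower (10.82 to 10.99 and 10.44 to 11.26). No blood, adipocyte, Schwann cell or macrophage marker passed that threshold in either direction, and no marker list was at the floor of the scale.

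After 3 weeks of knockdown, none of the 138 members differed between the groups after adjustment over the whole array. Those that came nearest differed by less than 2-fold. The genes left out by the rule are not covered here. At an unadjusted p under 0.05 in limma, there were 12 of the 138 members (8.7%), 4 higher and 8 lower in MYTHO, beside 12.4% of all probe sets (4.81% higher and 7.58% lower), so members passed this threshold no more often than the array as a whole. With each array centred on its median, 4 were higher and 3 lower, and Fbxl4, Fbxo7, Fbxo27, Fbxo40 and Klhl38 had an unadjusted p over 0.05. None reached at least 2-fold with that p, beside 1.51% of all probe sets (0.261% higher and 1.25% lower), and none had an adjusted p under 0.05, beside 0.027% of them. The lowest adjusted p of a member was 0.265, that of Fbxw23. Asb5 and Fbxw23 kept an unadjusted p under 0.05 whichever of the 8 arrays was left out. Of the 12, 8 kept it without the scrmb array of animal D, the array that stood apart, which lost Fbxo36, Fbxo7, Klhl25 and Klhl38, and 3 kept it without the scrmb array of animal C, namely Asb5, Fbxo36 and Fbxw23. Log2 fold changes of the members ran from -0.74 for Fbxw25 to 0.67 for Fbxo6.

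The members as a whole lay close to the array. Their median log2 fold change was -0.05 against -0.005 for all probe sets, and 56.5% of members had a negative value against 50.6% of all probe sets. In 2 members (1.45%) all 4 MYTHO arrays were above all 4 scrmb arrays and in 5 (3.62%) all were below, beside 2.59% and 3.87% of all probe sets. All 4 animals were higher in MYTHO for 6 members (4.35%) and lower for 12 (8.7%), beside 8.94% and 10.8%. The median standard error of a member's log2 fold change was 0.217, and 60 members had a mean log2 signal under the median of the table, 6.39, where low signal limits what can be seen.

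**Figure D1:**
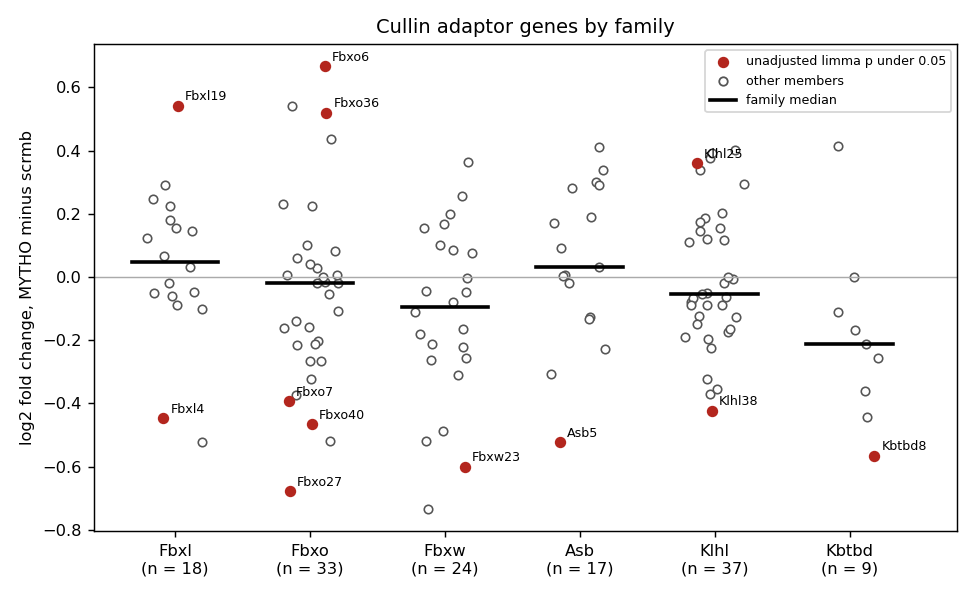
Log2 fold change (MYTHO minus scrmb, vertical axis) of the 138 cullin adaptor genes, one point per gene, in 6 families along the horizontal axis. Red points are the 12 genes with an unadjusted limma p under 0.05 and the bars are family medians, which run from -0.21 for Kbtbd to 0.05 for Fbxl, with the points of every family on both sides of 0 or touching it.

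By family, the median log2 fold change was 0.05 for Fbxl, -0.02 for Fbxo, -0.09 for Fbxw, 0.03 for Asb, -0.06 for Klhl and -0.21 for Kbtbd. The counts at an unadjusted p under 0.05 were 2 of 18 Fbxl, 5 of 33 Fbxo, 1 of 24 Fbxw, 1 of 17 Asb, 2 of 37 Klhl and 1 of 9 Kbtbd genes, which is 4.17% to 15.2% of a family beside 12.4% of all probe sets. The medians are a description, with no test, and those of Fbxl and Fbxw changed sign when the dimmer 50% of the table was left out.

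Of 19 adaptors known from striated muscle, 3 were lower at an unadjusted p under 0.05 (15.8%) and none was higher. Of all probe sets, 7.58% were lower and 4.81% higher, 12.4% in either direction. The share in either direction lay near that of the array, and the share lower was above it, on 3 genes. The 3 were Asb5, Fbxo40 and Klhl38, and the median log2 fold change of the 19 was -0.07. Their own range went from -0.52 for Asb5 to 0.41 for Asb18.

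Asb5 codes for an ankyrin-repeat and SOCS-box protein abundant in striated muscle. It lies on chromosome 8 from 54550331 to 54587842 (GRCm38.p6, the same assembly as mm10). Scrmb arrays measured 15.75, 15.89, 16.27 and 15.82 (log2 signal) and MYTHO arrays 15.52, 15.18, 15.40 and 15.54. The lowest scrmb array was above the highest MYTHO array, and all 4 animals were lower. This gave a log2 fold change of -0.52 ± 0.18 (SE, n = 4 per group), which is 69.6% of the scrmb level, with an unadjusted p of 0.0148 and an adjusted p of 0.276 in limma. With 1 array left out, the log2 fold change ran from -0.58 to -0.41.

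Fbxo40 codes for the F-box protein through which the insulin receptor substrate IRS1 is degraded in muscle, and lies on chromosome 16 from 36963461 to 36990530. Its log2 signal was 14.78, 15.06, 15.48 and 14.94 in scrmb and 14.67, 14.44, 14.50 and 14.79 in MYTHO. All 4 animals were lower, but the groups overlapped, with the MYTHO array of animal D just above the scrmb array of animal A. Limma gave a log2 fold change of -0.47 ± 0.19 (SE, n = 4 per group; unadjusted p 0.0344, adjusted p 0.360, limma), and the unadjusted p was 0.0544 with the animal as a block.

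Klhl38, a BTB-kelch gene of striated muscle on chromosome 15 from 58314573 to 58324169, had log2 signals of 12.29, 12.57, 12.41 and 12.41 in scrmb and 11.72, 11.92, 12.35 and 12 in MYTHO. The MYTHO array of animal C reached into the scrmb range, and the remaining MYTHO arrays lay below it. The log2 fold change was -0.42 ± 0.18 (SE, n = 4 per group; unadjusted p 0.0404, adjusted p 0.379, limma), and the unadjusted p was 0.0519 with the animal as a block.

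The slow-fibre markers differed most in the same animals as some of these genes. The mean slow-fibre difference, MYTHO minus scrmb, was 1.18, 2.52, 2.87 and 0.07 on the log2 scale in animals A to D. In the same order the difference was -0.23, -0.71, -0.87 and -0.28 for Asb5 and -0.11, -0.62, -0.98 and -0.15 for Fbxo40, so that both were lowest in animals B and C, where the slow-fibre difference was highest. For Klhl38 it was -0.57, -0.65, -0.06 and -0.41, in another order. Differences that were largest in size in animals B and C were found in 4 of the 12 members with an unadjusted p under 0.05 (33.3%), namely Asb5, Fbxo40, Fbxl4 and Kbtbd8, beside 33 of all 138 members (23.9%). The part of the slow-fibre difference in these values was not tested.

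The other 16 muscle adaptors all overlapped between groups, with an unadjusted p of at least 0.109. Klhl41, which keeps nebulin stable in the sarcomere, had the same mean in both groups, 15.80, with a log2 fold change of 0.00 (95% interval -0.38 to 0.38). Klhl40, its relative that protects nebulin and leiomodin 3, had log2 signals of 8.43, 8.61, 8.99 and 9.38 in scrmb and 9.44, 9.83, 8.95 and 8.80 in MYTHO, higher in animals A and B and lower in C and D (log2 fold change 0.40, 95% interval -0.19 to 1.00). Kbtbd13, the third nemaline myopathy gene, was at 0.00 (95% interval -0.55 to 0.55).

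Among the remaining muscle adaptors, Klhl31, needed for sarcomere upkeep, had a log2 fold change of -0.17 (95% interval -0.52 to 0.19). Klhl30 was the only muscle adaptor that was higher in all 4 animals, at 0.34 (95% interval -0.20 to 0.88). The Asb genes lay on both sides of 0, with Asb18 at 0.41, Asb16 at 0.30, Asb12 at 0.03, Asb15 at 0.01, Asb10 at -0.13, Asb14 at -0.13 and Asb11 at -0.23. Fbxl22, the F-box protein of the Z-disc, was at 0.29, Klhl33 at -0.07, Klhl34 at -0.09 and Kbtbd12 at -0.11. With 1 array left out, Asb18 was as low as 0.20 (without the MYTHO array of animal B), Asb16 0.10 (without the scrmb array of animal C) and Fbxl22 0.06 (without the MYTHO array of animal C). Likewise Klhl40 was 0.21 without the MYTHO array of animal B, Klhl30 0.17 without the scrmb array of animal C, Asb11 -0.09 without the MYTHO array of animal A, Asb14 -0.06 without the scrmb array of animal D and Kbtbd12 -0.02 without the MYTHO array of animal B. The widest of these 95% intervals, that of Klhl34, ran from -0.71 to 0.53.

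**Figure D2:**
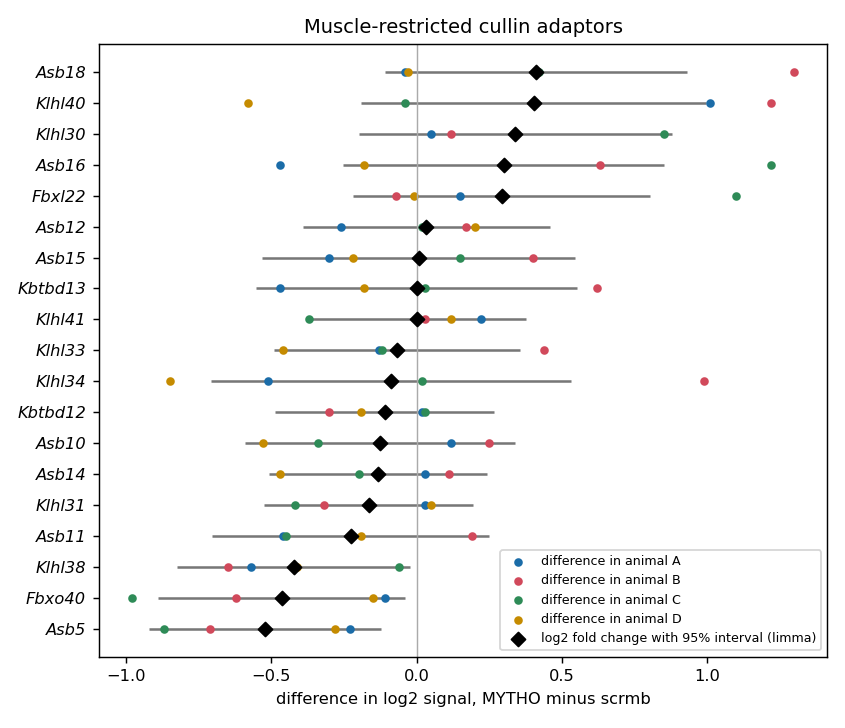
Difference in log2 signal (MYTHO minus scrmb, horizontal axis) of the 19 muscle adaptors, with a coloured point for each of the 4 animals, and a black diamond with a bar for the limma log2 fold change and its 95% interval. The intervals of Asb5, Fbxo40 and Klhl38, at the bottom, stay below 0, and those of the other 16 genes cross it.

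The promoter of Asb5 is shown because this is the muscle adaptor with the lowest unadjusted p, beside those of Fbxo36 and Klhl25, the members whose 4 MYTHO arrays were all above the 4 scrmb arrays. Each run holds the 250 bases before the start of the gene in RefSeq (GRCm38.p6), 5′ to 3′ on the strand of the gene. Capitals mark any match, on either strand, to any of 4 motifs. The first was the FoxO element, with the letters GTAAACA. Next came the E-box that factors of the MyoD type bind, with the letters CAGCTG. The others were the TATA box, with the letters TATAAA, and the CCAAT box, spelled as its name. The motifs share no letters where they match in these runs. The windows are chr8:54550081-54550330 (plus strand) for Asb5, chr1:84839591-84839840 (plus strand) for Fbxo36 and chr7:75848088-75848337 (plus strand) for Klhl25.
Asb5: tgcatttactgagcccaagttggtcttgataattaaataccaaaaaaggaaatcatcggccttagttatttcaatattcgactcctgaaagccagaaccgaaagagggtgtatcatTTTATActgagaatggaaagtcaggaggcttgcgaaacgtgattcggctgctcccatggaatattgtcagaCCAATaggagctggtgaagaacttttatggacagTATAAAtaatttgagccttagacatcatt
Fbxo36: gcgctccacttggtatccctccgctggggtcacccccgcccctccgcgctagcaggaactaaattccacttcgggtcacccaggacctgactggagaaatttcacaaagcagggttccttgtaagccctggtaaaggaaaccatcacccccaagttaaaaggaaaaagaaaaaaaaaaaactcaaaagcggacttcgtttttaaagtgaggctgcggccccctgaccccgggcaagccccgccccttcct
Klhl25: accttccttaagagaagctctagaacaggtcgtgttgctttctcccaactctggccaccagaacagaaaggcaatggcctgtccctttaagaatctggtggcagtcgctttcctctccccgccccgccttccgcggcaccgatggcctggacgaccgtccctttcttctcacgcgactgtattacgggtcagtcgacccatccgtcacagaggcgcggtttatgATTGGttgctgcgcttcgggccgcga

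The Asb5 window has a TATAAA beginning 29 bases before the start, a second match on the other strand and 1 CCAAT. The Klhl25 window has 1 CCAAT, and the Fbxo36 window has none of the 4 motifs. Windows before a RefSeq start were found for 110 of the 138 members, of which 60 end at the start of the annotated gene and 50 at a start inside its span. Of the 110, 1.82% held GTAAACA against 3.06% of all 27025 windows, 8.18% held TATAAA against 13%, 25.5% held CCAAT against 34.5%, and 29.1% held CAGCTG against 12.7%. A match is a description of the letters and shows no binding.

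Of the 75 members with an Fbxl, Fbxo or Fbxw symbol, Fbxl12os included, 8 (10.7%) had an unadjusted p under 0.05, 3 higher and 5 lower. This stood beside 12.4% of all probe sets. Of the 3 listed for mitochondria and iron, 2 were lower at an unadjusted p under 0.05, Fbxl4 and Fbxo7, beside 7.58% of all probe sets. Fbxl4 restrains the mitophagy receptors BNIP3 and NIX. Fbxo7 is a parkinsonism gene that acts in mitophagy and binds the proteasome regulator PI31. Both had an unadjusted limma p over 0.05 with median centring and with the animal as a block. Whether mitophagy genes as a set differed was not tested. Fbxl5, the iron sensor of the same list, had a log2 fold change of -0.06 (95% interval -0.45 to 0.33).

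Fbxl4 (chromosome 4, 22357526 to 22434091) had log2 signals of 11.00, 11.18, 11.00 and 10.71 in scrmb and 10.83, 10.32, 10.28 and 10.67 in MYTHO. All 4 animals were lower, by 0.86 in animal B and 0.72 in animal C but by 0.17 and 0.04 in animals A and D, and the groups overlapped through the scrmb array of animal D. This gave a log2 fold change of -0.45 ± 0.19 (SE, n = 4 per group; unadjusted p 0.0390, adjusted p 0.373, limma), and the unadjusted p was 0.0605 with the animal as a block. Fbxl4 is one of the 4 members named above whose differences were largest in animals B and C.

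Fbxo7 (chromosome 10, 86020449 to 86051873) had log2 signals of 7.47, 7.4, 7.48 and 7.33 in scrmb and 6.92, 6.77, 7.16 and 7.26 in MYTHO. The scrmb arrays lay within 0.15 of each other, and every MYTHO array was below them. Limma gave a log2 fold change of -0.39 ± 0.17 (SE, n = 4 per group; unadjusted p 0.0438, adjusted p 0.388, limma), and the unadjusted p was 0.0660 with the animal as a block.

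The F-box genes of the family known for binding sugar chains on glycoproteins lay on both sides of 0. Whether each of them binds such chains was not examined. Of the 5 in the list, Fbxo6, which takes part in the clearance of misfolded glycoproteins from the endoplasmic reticulum, was higher, and Fbxo27, which binds glycoproteins of damaged lysosomes, was lower. Fbxo44 was at 0.44, Fbxo2 at 0.01 and Fbxo17 at -0.16, and the groups overlapped for all 5. Without the MYTHO array of animal B, Fbxo44 was at 0.25, and Fbxo17 was at -0.33 without the MYTHO array of animal C and at -0.06 without the scrmb array of that animal.

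Fbxo6 (chromosome 4, 148145716 to 148152135) had log2 signals of 7.47, 8.31, 7.70 and 8.19 in scrmb and 8.90, 9.01, 8.27 and 8.16 in MYTHO. The 2 highest arrays were the MYTHO arrays of animals A and B, while animal D did not differ by more than 0.03. The log2 fold change was 0.67 ± 0.26 (SE, n = 4 per group; unadjusted p 0.0243, adjusted p 0.325, limma), which is 159% of the scrmb level. Fbxo2, Fbxo6 and Fbxo44 are neighbours on this chromosome, between 148145716 and 148166420.

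Fbxo27 (chromosome 7, 28692780 to 28699338) was dim, with log2 signals of 4.63, 4.45, 5.54 and 4.53 in scrmb and 4.59, 4.54, 3.91 and 3.40 in MYTHO. Animals A and B were alike between the groups, and the difference came from animals C and D. This gave a log2 fold change of -0.68 ± 0.31 (SE, n = 4 per group; unadjusted p 0.0497, adjusted p 0.403, limma), and it was -0.43 without the scrmb array of animal C.

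The other F-box genes with an unadjusted p under 0.05 and a higher mean were Fbxo36 and Fbxl19. Fbxo36 (chromosome 1, 84839841 to 84900487) had log2 signals of 7.5, 7.61, 7.44 and 7.05 in scrmb and 8.18, 7.77, 8.08 and 7.65 in MYTHO. Every MYTHO array was above every scrmb array, and all 4 animals were higher. Limma gave a log2 fold change of 0.52 ± 0.20 (SE, n = 4 per group; unadjusted p 0.0217, adjusted p 0.312, limma). Fbxl19, whose protein binds unmethylated CpG islands, had log2 signals of 5.91, 5.95, 5.61 and 5.85 in scrmb and 6.30, 5.89, 6.75 and 6.55 in MYTHO. It was higher in animals A, C and D and not in animal B, with a log2 fold change of 0.54 ± 0.21 (SE, n = 4 per group; unadjusted p 0.0235, adjusted p 0.323, limma). Its mean log2 signal, 6.10, was under the median of the table.

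Fbxo3 and Fbxo9 also had all 4 MYTHO arrays below the 4 scrmb arrays, by gaps of 0.01 and 0.03, with an unadjusted p over 0.05. Fbxo3 had log2 signals of 12.74 to 13.07 in scrmb and 12.45 to 12.73 in MYTHO (log2 fold change -0.32, unadjusted limma p 0.0796), and Fbxo9, whose protein acts on the TEL2-TTI1 complex of the mTOR kinases, had 8.83 to 9.25 and 8.65 to 8.80 (-0.27, unadjusted limma p 0.143, and -0.18 without the scrmb array of animal D).

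**Figure D3:**
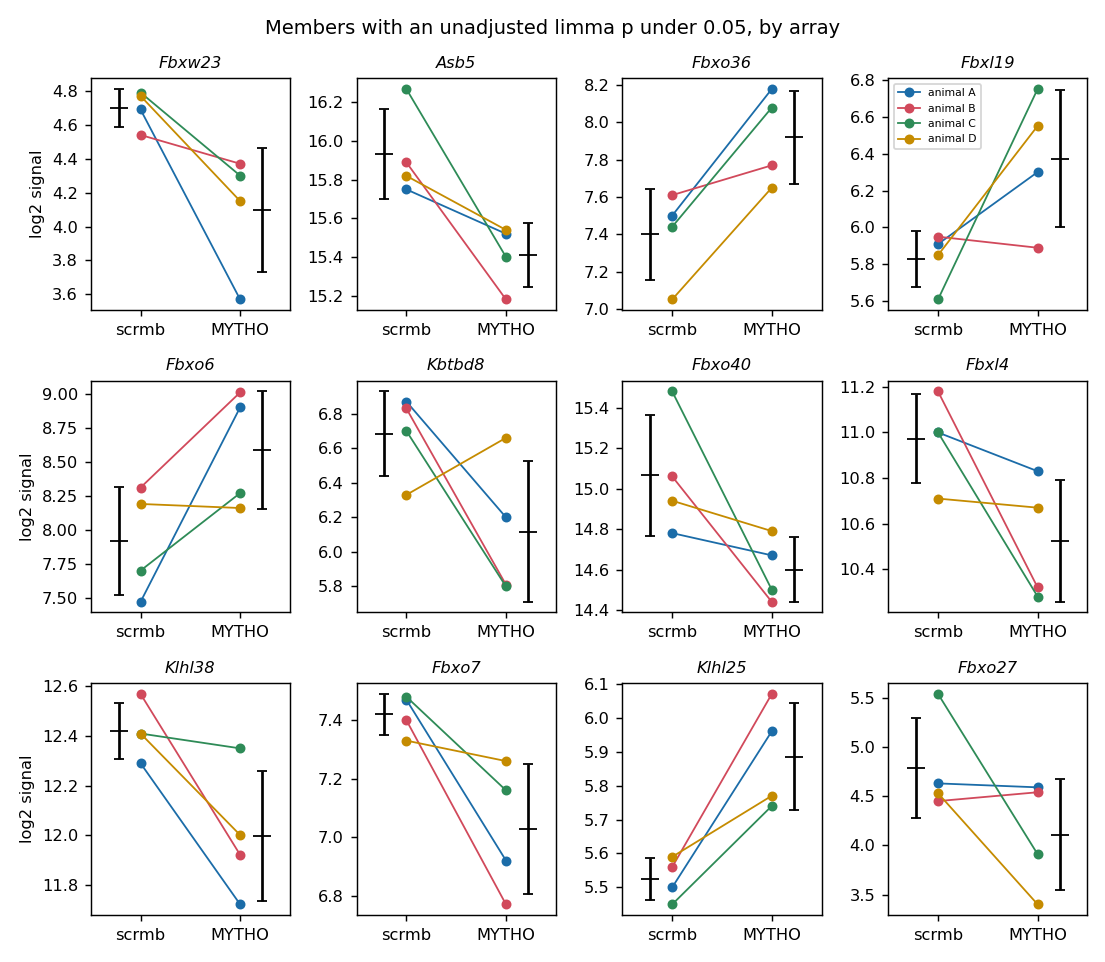
Log2 signal (vertical axis, a separate scale in each panel) of the 12 members with an unadjusted limma p under 0.05 in the scrmb and MYTHO arrays. Lines join the arrays of one animal, and the black marks are group means with SD (n = 4); the groups do not overlap for Fbxw23, Asb5, Fbxo36, Fbxo7 and Klhl25.

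F-box genes of the cell cycle held no member with an unadjusted p under 0.05. Fbxw7, the receptor for cyclin E and MYC, was at 0.37 (95% interval -0.16 to 0.89, and 0.21 without the MYTHO array of animal D), Fbxo4 at 0.23, Fbxl12 at 0.16 and Fbxo5, an inhibitor of the anaphase-promoting complex, at -0.27. Of the genes listed for the circadian clock instead, Fbxw11, which also marks beta-catenin, was at -0.05 and Fbxl21 at -0.09. The 95% intervals of all these genes held 0.

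The Fbxw family is described here by position, a split added after seeing the data. Of its 24 genes, 15 lie side by side on chromosome 9 between 109139454 and 109790660, a run of tandem copies found in rodents, and 14 of these had a mean log2 signal under the median of the table. Their median log2 fold change was -0.21, against 0.16 for the other 9 Fbxw genes. Of the 15, 13 were below 0 (86.7%), beside 50.6% of all probe sets. In animals A to D the median difference of the tandem genes was -0.07, -0.26, -0.43 and 0.01. That of the other 9 was 0.06, 0.19, 0.35 and -0.07. This is a description: the tandem genes are near copies of each other, and whether their probes tell the copies apart was not tested. The largest values were those of Fbxw25 at -0.74 ± 0.40, Fbxw23 at -0.60 ± 0.20, Fbxw14 at -0.52 ± 0.29 and Fbxw19 at -0.49 ± 0.25 (SE, n = 4 per group). That of Fbxw25 was -0.45 without the scrmb array of animal A and -1.05 without that of animal C.

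Fbxw23 (chromosome 9, 109516398 to 109543189) was the only tandem gene with an unadjusted p under 0.05. Its log2 signal was 4.69, 4.54, 4.79 and 4.77 in scrmb and 3.57, 4.37, 4.30 and 4.15 in MYTHO. Every MYTHO array was below every scrmb array, and the array of animal A was farthest down. The unadjusted p was 0.0125 and the adjusted p 0.265 in limma. Fbxw25 had log2 signals of 6.16, 5.67, 4.34 and 5.02 in scrmb and 4.18, 4.63, 3.94 and 5.50 in MYTHO, with overlap and an unadjusted p of 0.0930 in limma. Both genes are dim on this array.

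**Figure D4:**
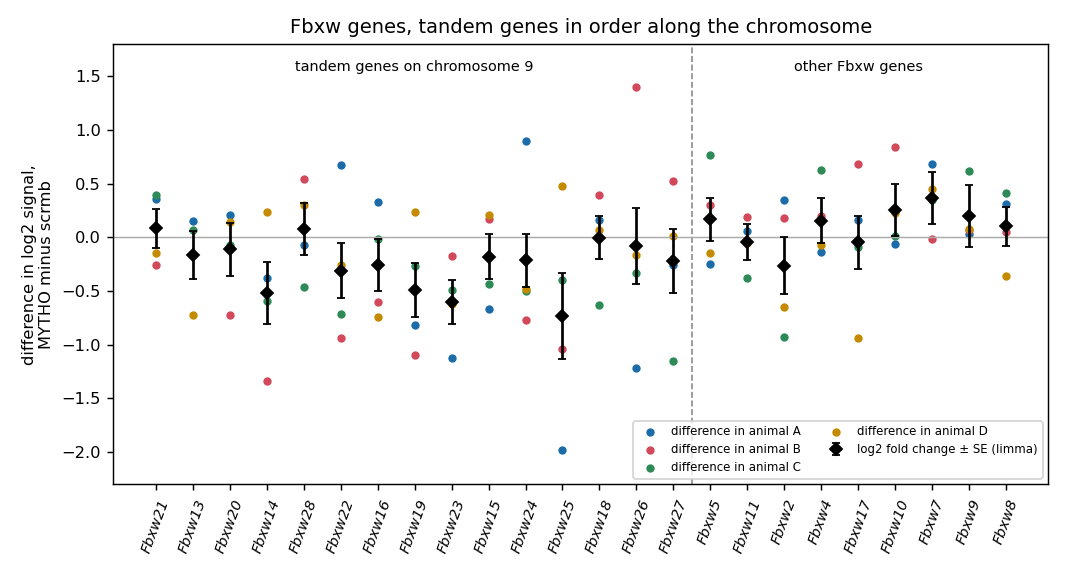
Difference in log2 signal (MYTHO minus scrmb, vertical axis) of the 24 Fbxw genes, the 15 tandem genes in order along chromosome 9 to the left of the dashed line and the other 9 to the right. Coloured points are the 4 animals and black diamonds with bars are the limma log2 fold change with its SE; 13 of the 15 tandem genes lie below 0, most with animals on both sides of it.

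The tandem copies are also alike in their promoters, and a stretch of 4 of them is shown for that reason. Of the 12 with a window in RefSeq, 11 (91.7%) held CAGCTG, among them 8 of the 9 whose window ends at the start of the annotated gene, against 21.4% of the 98 other members with a window and 11.6% of the windows of 17492 protein-coding genes. Around the match nearest to the start, the 10 others had the same letter as Fbxw26 at 28 to 30 of 30 bases. Fbxw23 was the copy without it, and its most similar stretch matched Fbxw26 at 15 of 30 bases. The runs are 5′ to 3′ on the minus strand of GRCm38.p6, with CAGCTG in capitals, from chr9:109746171-109746200 for Fbxw26, chr9:109626143-109626172 for Fbxw24, chr9:109449223-109449252 for Fbxw16 and chr9:109543236-109543265 for Fbxw23.
Fbxw26: tgagagtctacaCAGCTGcagcttgctcca
Fbxw24: tgagcgtctacaCAGCTGcagcttgctcca
Fbxw16: tgagagtcttcaCAGCTGtagcttgctcca
Fbxw23: cctgataccaccaagttcctgcttcccctt

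Of the 46 BTB-kelch genes, 3 (6.52%) had an unadjusted p under 0.05, beside 12.4% of all probe sets: Klhl38, described above, Kbtbd8 and Klhl25. Klhl25 (chromosome 7, 75848338 to 75874133), an adaptor for the translation repressor 4E-BP1, had log2 signals of 5.50, 5.56, 5.45 and 5.59 in scrmb and 5.96, 6.07, 5.74 and 5.77 in MYTHO. The scrmb arrays were close together and every MYTHO array was above them. Its mean log2 signal, 5.705, was under the median of the table. The log2 fold change was 0.36 ± 0.16 (SE, n = 4 per group; unadjusted p 0.0491, adjusted p 0.400, limma), and the unadjusted p was 0.0744 with the animal as a block. With 1 array left out, the unadjusted limma p ran from 0.0428 to 0.118.

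Kbtbd8 (chromosome 6, 95117880 to 95129793), known for its part in neural crest specification, had log2 signals of 6.87, 6.83, 6.70 and 6.33 in scrmb and 6.20, 5.81, 5.8 and 6.66 in MYTHO. It was lower in animals A, B and C and higher in animal D. This gave a log2 fold change of -0.57 ± 0.23 (SE, n = 4 per group; unadjusted p 0.0291, adjusted p 0.343, limma), and it was -0.75 without the MYTHO array of animal D.

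In the Kbtbd family 7 of 9 log2 fold changes were negative, 1 was 0 and 1 positive. After Kbtbd8, the lowest were Kbtbd4 at -0.44, lower in all 4 animals (unadjusted p 0.0735, and 0.0371 with the animal as a block, limma), and Kbtbd6 at -0.36, lower in 3 of 4. Kbtbd2, an adaptor for the regulatory subunit of PI3 kinase, was at -0.26 and lower in all 4 animals, Kbtbd3 was at -0.21 and Kbtbd7 at -0.17. Without the MYTHO array of animal B, Kbtbd4 was at -0.26 with an unadjusted limma p of 0.235, without that of animal C Kbtbd2 was at -0.14, and without the scrmb array of animal B Kbtbd3 was at -0.05. The positive one was Kbtbd11, a dim gene, at 0.42 with log2 signals of 4.10, 4.01, 4.75 and 4.06 in scrmb and 4.98, 4.24, 4.55 and 4.81 in MYTHO. These 6 genes overlapped between the groups.

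Other functional groups of Klhl genes held no member with an unadjusted p under 0.05. The 4 that act in mitosis, Klhl9, Klhl13, Klhl21 and Klhl22, lay between -0.09 and -0.005. Klhl2 and Klhl3, adaptors for the WNK kinases of salt transport, were at -0.23 and 0.11. Klhl12, which controls the size of the vesicles that carry collagen, was at -0.37 (95% interval -0.81 to 0.07), and Klhl20, which acts at the Golgi apparatus, at -0.13.

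Among 37 cullin, RING, SKP1, elongin, neddylation and COP9 signalosome genes, 1 was higher and 1 lower at an unadjusted p under 0.05 (5.41%, beside 12.4% of all probe sets), none had an adjusted p under 0.05, and the median log2 fold change was -0.06. In 3 of them (8.11%) all MYTHO arrays were above all scrmb arrays and in 2 (5.41%) all were below, beside 2.59% and 3.87% of all probe sets. The cullins that the members bind were at -0.30 for Cul1 (95% interval -0.72 to 0.13), -0.26 for Cul3 (-0.64 to 0.12) and -0.19 for Cul5 (-0.56 to 0.19). Skp1a was at 0.04, and the elongins Tceb1 and Tceb2 were at 0.00 and 0.25.

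The lower one was Rnf7, the RING subunit RBX2 that pairs with CUL5 and so serves the Asb proteins. Its log2 signal was 12.50, 12.41, 12.30 and 12.23 in scrmb and 11.74, 11.89, 11.83 and 12.12 in MYTHO, with no overlap. Limma gave a log2 fold change of -0.47 ± 0.17 (SE, n = 4 per group; unadjusted p 0.0176, adjusted p 0.293, limma). The higher one was Dcun1d4, of the family that helps NEDD8 onto cullins, with log2 signals of 6.56, 6.56, 7.20 and 7.32 in scrmb and 7.85, 8.10, 8.09 and 7.36 in MYTHO. Its groups did not overlap either, though animal D differed by only 0.04. The log2 fold change was 0.94 ± 0.24 (SE, n = 4 per group; unadjusted p 0.00233, adjusted p 0.157, limma). Nedd8 itself was at 0.33, with log2 signals of 9.75 to 9.93 in scrmb and 10.11 to 10.30 in MYTHO (unadjusted limma p 0.0631).

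**Figure D5:**
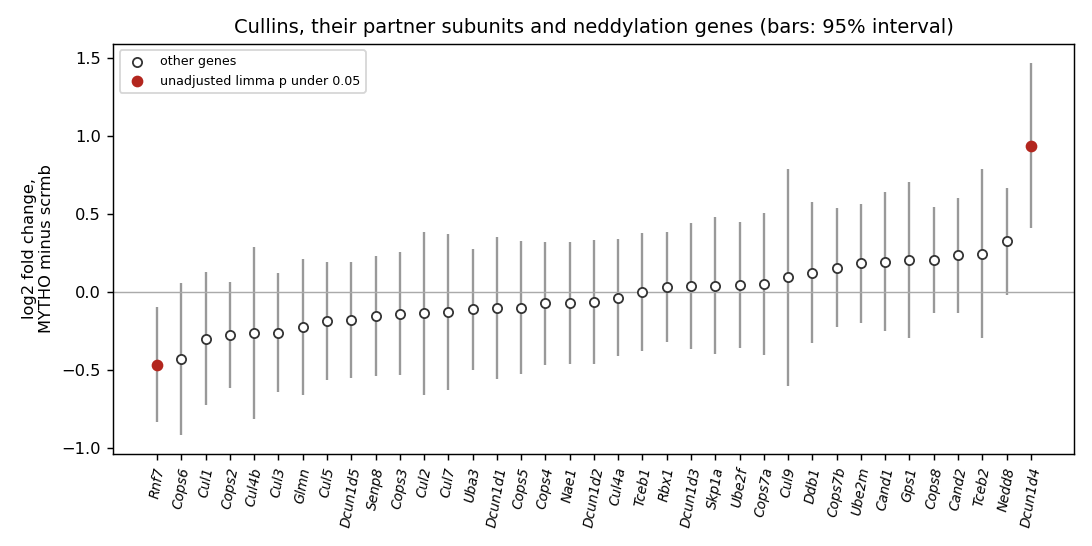
Log2 fold change (MYTHO minus scrmb, vertical axis) of 37 cullin, partner-subunit and neddylation genes, in order of their value along the horizontal axis. Bars are 95% limma intervals (n = 4 per group), and the 2 red points, Rnf7 at -0.47 and Dcun1d4 at 0.94, are those with an unadjusted p under 0.05.

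Of 30 further substrate receptors whose symbols the rule does not match, such as Skp2, Vhl and the Socs genes, 2 had an unadjusted p under 0.05 (6.67%, beside 12.4% of all probe sets), both lower, and the median log2 fold change was 0.11. Keap1, the CUL3 adaptor that marks the oxidative stress factor NRF2, had log2 signals of 8.14, 8.69, 8.44 and 9.27 in scrmb and 8, 8.12, 6.98 and 7.98 in MYTHO. The highest MYTHO array lay just below the lowest scrmb array. This gave a log2 fold change of -0.87 ± 0.30 (SE, n = 4 per group; unadjusted p 0.0130, adjusted p 0.267, limma). Enc1, an actin-binding kelch protein, was at -0.49 ± 0.22 (SE, n = 4 per group; unadjusted p 0.0452, adjusted p 0.390, limma).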

How the data were processed

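The authors deposited gene-level log2 signals of 8 Clariom S Mouse arrays, which they made with SST-RMA and default settings in the Transcriptome Analysis Console version 4.0.1, with annotation release 36 on mm10. SST-RMA corrects background, rescales probes, quantile normalizes the arrays and summarises probes by median polish, so a shift of all genes together is removed. The authors' group averages, fold changes and p-values were not used. Limma version 3.58.1 in R version 4.3.3 (lmFit and eBayes, two-sided) compared MYTHO with scrmb on all 22206 probe sets, without a block as the study's array methods name none, with Benjamini-Hochberg adjustment over the whole table. The fit was tested on simulated data with 200 changed genes. An animal number stands in each column's name, once per group, and the legs of one animal received the 2 viruses, so the animal was the block of an alternative fit. Deviations of same-numbered arrays from their group means correlated at 0.003, -0.001, 0.135 and 0.087. Gene positions came from RefSeq for GRCm38.p6, which matched 137 members by symbol and Fbxo18 by a synonym. The rows of Klhl15 and Klhl17 also name a microRNA.

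The members and gene lists were chosen with earlier results of these data known. By the rule for naming, the text gives members with an unadjusted p under 0.05 and no overlap between groups, the muscle adaptors, and in each family the member with the highest mean signal and those with the highest and lowest log2 fold change. Other members at that p and examples of the functional lists were added. Alternatives were quantile normalization, median centring, filters on dim probe sets, trend and robust variances, array weights, blocks, other thresholds, leaving out saturated or ambiguous probe sets, and leaving out each array. Precision is limited by 4 arrays per group. One member is not reported here by name.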

Additional observations from a re-analysis of the deposited data

Results flagged for a closer look

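In 106 groups of 4 arrays tested for 1 array far from the other 3, 4 were found, and chance alone gives about 1 in 20. The MYTHO array of animal C had an Fbxo17 log2 signal of 6.41 against 5.71 to 5.73 in the other MYTHO arrays. The scrmb array of animal C was high for Fbxo27, at 5.54 against 4.45 to 4.63, and for Kbtbd11, at 4.75 against 4.01 to 4.10. The MYTHO array of animal A was low for Kbtbd13, at 5.30 against 6.07 to 6.20.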

How the results depend on the processing

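No member had an adjusted p under 0.05 in limma under any of the 12 other settings or with any array left out. The lowest adjusted p of a member was 0.113, that of Asb5 with trend and robust variances. The 8 members lower at an unadjusted p under 0.05 became 5 with quantile normalization and 3 with median centring, which moves the median of all genes from -0.005 to 0.035. At 1.5-fold or more with that p, 1 was higher and 2 were lower, and at 2-fold none was in either direction (0 and 0). Counting only genes whose groups do not overlap, 2 were higher and 5 lower, a setting chosen after seeing the data. Of the 4 higher members, 2 remained among the brighter 50% of probe sets. The median of Fbxl was -0.02 among the brighter 75% and -0.06 among the brighter 50%. That of Fbxw was 0.10 among the brighter 50% and 0.16 without the tandem genes on chromosome 9, which was added after seeing the data.

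With the animal as a replicate block, 3 members were higher and 6 lower at an unadjusted p under 0.05, 9 in all. Of these 7 were among the 12 found without the block, and Fbxo47 (0.0266) and Kbtbd4 (0.0371) were added. A block on the replicate numbers of the labels was not run, since the columns could not be tied to them, nor was another choice of probe set, since each member has 1.

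With 1 array left out, the higher count ran from 1 (without the MYTHO array of animal A) to 3, and was 2 without the array of animal C of either group. The lower count ran from 4 (without the scrmb array of animal C or the MYTHO array of animal B) to 10, and was 5 without the scrmb array of animal A. Medians ran from -0.0083 to 0.12 for Fbxl, -0.056 to 0.14 for Asb, -0.12 to 0.0046 for Fbxw and -0.051 to 0.0067 for Klhl, which all changed sign, from -0.10 to -0.033 for Fbxo, which was 0.02 with median centring, and from -0.29 to -0.14 for Kbtbd. Genes near 0 changed sign. With array weights the log2 fold change was -0.074 for Asb15, -0.022 for Fbxo2 and 0.0066 for Klhl34, and with quantile normalization it was -0.020 for Asb15. With 1 array left out it ran from -0.25 to 0.022 for Asb10, -0.067 to 0.14 for Asb12, -0.23 to 0.13 for Asb15, -0.13 to 0.041 for Fbxl5, -0.20 to 0.033 for Fbxl21, -0.19 to 0.24 for Fbxo2, -0.095 to 0.017 for Fbxw11, -0.29 to 0.023 for Kbtbd7, -0.19 to 0.010 for Klhl33 and -0.38 to 0.073 for Klhl34. Low signal limits the 60 members under the median of the table. The causes of these differences were not tested.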
